A study of Homo sapiens with 12 samples.

Results

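HSD11B1, H6PD, NR3C1 and FKBP5 were followed across 12 libraries of the human melanoma line WM1366, as 4 of the 12931 genes listed in the deposited values. HSD11B1 was chosen by its measured values, selected on its rise against control in both groups on combined inhibitors, so its values against control are a description and carry no test. The other three were added for their roles as its cofactor enzyme, the receptor for its product, and a target of that receptor. They and the further gene lists were named with earlier results of these data known.

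HSD11B1 encodes 11β-hydroxysteroid dehydrogenase type 1, an enzyme of the endoplasmic reticulum that turns inactive cortisone into active cortisol inside the cell. It takes its reducing power from NADPH, which hexose-6-phosphate dehydrogenase, the product of H6PD, makes in the same compartment from glucose 6-phosphate. Cortisol binds the glucocorticoid receptor encoded by NR3C1, which is held in the cytosol by HSP90 and its partners and then enters the nucleus. FKBP5 encodes an immunophilin of the receptor complex that lowers its affinity for hormone and is itself induced by the hormone-bound receptor. HSD11B1 is known above all from liver, fat and fibroblasts.

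The study compared tumours of WM1366 that grew out in mice on a control diet with tumours that grew out on a diet holding a MEK inhibitor and a CDK4/6 inhibitor, per the series' design text. The labels name 3 groups of 4 libraries: control (control diet), combination R1 and combination R2 (both on the combination diet). How R1 differs from R2 is not in the labels, nor is it stated whether the 4 libraries of a group came from separate tumours, so that p-values measure the spread between these libraries, which may be technical. The labels also describe cells in culture medium and give palbociclib at 0.1 µM and PD0325901 at 1 nM for all 12 libraries, the controls included, which does not match the diet label. All libraries derive from 1 cell line. Whether reads of mouse tissue were removed is not given in the sources used here.

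Values are normalised read counts, which are read numbers scaled to nearly the same total in every library, and 3 reads correspond to 0.0728 to 0.158. Depth ran from 20003891 to 39009384 reads in listed genes. Fold changes are on the log2(value + 0.5) scale, and a gene was called at an adjusted p under 0.05 (limma, Benjamini-Hochberg over all 12931 genes). Against control, 43.8% of all genes were called in R1 and 28.4% in R2, and 46.8% were called between R2 and R1. Replicate 2 of R1 stood apart from the other R1 libraries on the third principal component, which held 8.65% of the variance. Its score was 38.6, against -19.2 to -4.28. Control split on the same component, with replicates 1 and 2 at -18.6 and -10.8 and replicates 3 and 4 at 13.5 and 10.95. R2 ran from -3.14 to 13.0. For how many of all genes replicate 2 was the highest R1 library was not counted. Mitochondrial transcripts took 2.17% to 3.28% of reads in R1, against 5.86% to 10.9% in control and 4.02% to 9.63% in R2. Of the 10 melanocyte and melanoma markers looked for, MITF averaged 50.3 in control, 23.5 in R1 and 30.4 in R2, PMEL averaged 5.32, 27.1 and 8.81, and VIM was abundant throughout. The other markers of that list were not among the 12931 listed genes.

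The sequences before an annotated start of 4 genes are shown first, because HSD11B1 lies next to 2 genes that rose with it in R1 and because H6PD was higher there too. They are the 250 bases before a RefSeq start on GRCh38.p14, written 5′ to 3′ on the strand of the gene, with motif matches in capitals. HSD11B1 (chr1:209685929-209686178, plus strand), H6PD (chr1:9239597-9239846, plus strand), G0S2 (chr1:209675162-209675411, plus strand) and 1 of 3 LAMB3 starts (chr1:209651375-209651624, minus strand) read as follows. The windows of H6PD and LAMB3 lie inside those genes as the annotation used for their positions places them.
HSD11B1: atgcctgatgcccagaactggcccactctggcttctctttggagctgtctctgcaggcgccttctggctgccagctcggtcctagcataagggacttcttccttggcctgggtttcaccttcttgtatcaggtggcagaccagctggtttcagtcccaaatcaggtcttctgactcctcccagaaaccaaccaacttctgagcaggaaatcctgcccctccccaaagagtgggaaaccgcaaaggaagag
H6PD: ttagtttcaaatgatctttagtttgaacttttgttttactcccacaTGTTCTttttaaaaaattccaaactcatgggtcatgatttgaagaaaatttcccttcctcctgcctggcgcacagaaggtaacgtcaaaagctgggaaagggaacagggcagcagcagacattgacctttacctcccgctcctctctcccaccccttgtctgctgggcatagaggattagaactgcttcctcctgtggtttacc
G0S2: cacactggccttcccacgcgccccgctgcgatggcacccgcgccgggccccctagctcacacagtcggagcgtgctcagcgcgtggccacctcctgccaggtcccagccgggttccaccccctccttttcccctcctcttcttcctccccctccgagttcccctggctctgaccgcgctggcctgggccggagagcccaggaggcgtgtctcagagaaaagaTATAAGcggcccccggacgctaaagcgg
LAMB3: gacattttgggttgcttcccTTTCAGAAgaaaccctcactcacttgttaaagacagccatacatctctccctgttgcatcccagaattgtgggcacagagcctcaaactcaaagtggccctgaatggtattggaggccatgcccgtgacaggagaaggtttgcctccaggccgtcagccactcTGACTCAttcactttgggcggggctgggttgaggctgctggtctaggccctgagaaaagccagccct

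The motifs were searched on both strands of these windows, and none of them was found in that of HSD11B1. The C/EBP motif was TTNNGNAA, the full site and the single-arm site of the glucocorticoid receptor were ACANNNTGT and TGTTCT, AP-1 was TGANTCA and the TATA box was TATAAN. Among 35114 RefSeq promoter windows of this length they occurred in 33.2%, 4.608%, 12.39%, 6.573% and 18.9%. The H6PD window held the single-arm site, 204 bases before the start, and the G0S2 window held a TATA box, 28 bases before the start. The LAMB3 window held a C/EBP match 230 bases and an AP-1 match 67 bases before the start, and in these windows the C/EBP and AP-1 matches did not overlap. Another LAMB3 start (209652329) had the single-arm site 54 bases before it, and the third (209652425) had none of the motifs. The windows of both FKBP5 starts held none of the motifs. Of 7 NR3C1 starts 5 had C/EBP matches, 8 in all, 2 had a TATA box and 1 an AP-1 match, and none had a receptor site. A match is a description of the letters and not a bound site. HSD11B1 has a further annotated start inside the gene, which these values per gene cannot separate from the one shown. The bases before that start were not searched, so the absence of matches covers only the HSD11B1 window shown.

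HSD11B1 (ENSG00000117594.9, chr1:209686178-209734950, plus strand, GRCh38) was near absent in control and present in every R1 and R2 library. The 4 control libraries held 0, 0.0389, 0.0521 and 0.105 normalised reads, from 0, 1, 1 and 2 reads. The R1 libraries held 48.5, 72.7, 25.6 and 22.3, and the R2 libraries 4.51, 3.35, 6.27 and 6.01. The 3 groups did not overlap, with R1 highest, R2 between and control lowest. Ranges of 4 libraries lay apart for 39.7% of all genes between R1 and control (20.8% higher, 19% lower), for 34.8% between R2 and control (18% higher, 16.8% lower) and for 39.4% between R2 and R1 (19.1% higher, 20.3% lower).

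Summed over libraries, HSD11B1 had 4 reads in control, 5049 in R1 and 559 in R2. Scaled for depth, the ratio to control was 960 in R1 (95% exact counting interval 375 to 3525) and 116 in R2 (44.9 to 426). Counting intervals, here and below, pool the reads of a group, cover counting error only and leave out the spread between libraries. Copies made by PCR are also not independent molecules. For HSD11B1 the intervals describe the contrast on which it was chosen and are no test. On the log2(value + 0.5) scale the differences from control were 6.12 and 3.30, the third highest of all genes in R1 and rank 24 in R2. Both comparisons use the same control libraries.

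The order of R1 and R2 played no part in choosing HSD11B1 and was tested. The mean was 42.3 ± 23.4 in R1 and 5.04 ± 1.37 in R2 (SD, n = 4 each), 8.39-fold higher in R1. The difference, R2 minus R1, was -2.82 on the log2 scale (SE 0.31, limma adjusted p = 7.3e-06), and every R1 library was above every R2 library. Without replicate 2 of R1 it was -2.51 (adjusted p = 5.9e-06).

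Within R1 the HSD11B1 level ran from 22.3 to 72.7, with replicates 1 and 2 above replicates 3 and 4. Its coefficient of variation over the 4 R1 libraries was 55.4%, against a median of 15.1% among the 4646 genes with an R1 mean within 2-fold of its own, and 99.3% of those had a lower one. The annotation places an antisense gene, AL031316.1, over HSD11B1 (chr1:209686178-209724125, minus strand). The library kit does not mark strand, so reads of the pair cannot be told apart.

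**Figure D1:**
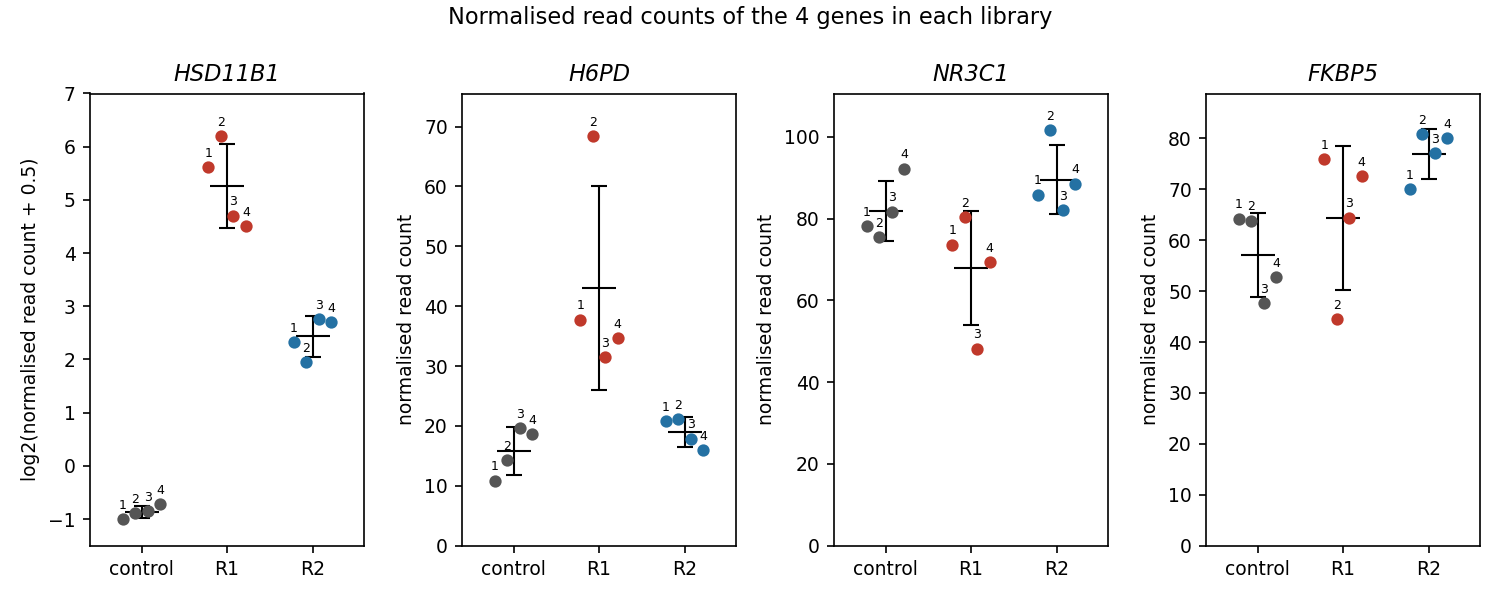
Values of HSD11B1, H6PD, NR3C1 and FKBP5 in the 4 libraries of control, R1 and R2 (points, numbered by replicate) with the mean and SD of each group (bars). The vertical axis is the normalised read count, except for HSD11B1, where it is log2(normalised read count + 0.5). HSD11B1 separates the 3 groups, and H6PD sets R1 (31.5 to 68.4) above control (10.8 to 19.6).

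H6PD (ENSG00000049239.12, chr1:9234775-9271337, plus strand) rose in R1 together with HSD11B1 and was not called in R2. It held 10.8, 14.3, 19.6 and 18.6 normalised reads in control, 37.8, 68.4, 31.5 and 34.7 in R1, and 20.8, 21.1, 17.9 and 15.9 in R2. All R1 libraries were above all others, and R2 overlapped control. The mean was 15.8 ± 4.05 in control, 43.1 ± 17.1 in R1 and 18.9 ± 2.48 in R2 (SD, n = 4 each).

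The H6PD difference from control was 1.38 in R1 (SE 0.23, limma adjusted p = 0.00026), 2.72-fold, in a comparison where 22.4% of all genes were called higher. In R2 it was 0.28 (adjusted p = 0.39), where 13.6% were called higher. The difference between the groups was itself called, at -1.10 for R2 minus R1 (adjusted p = 0.0014), where 24% of genes were called lower. Replicate 2 of R1 held the highest H6PD value, as it did for HSD11B1. In control, H6PD was higher in replicates 3 and 4 than in replicates 1 and 2. Without R1 replicate 2 the rise in R1 was 1.14 (adjusted p = 0.00023).

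NR3C1 (ENSG00000113580.14, chr5:143277931-143435512, minus strand), the receptor, was expressed in every library and was not called against control in either group. Control held 78.1, 75.4, 81.7 and 92.2 normalised reads, R1 held 73.7, 80.3, 48.2 and 69.4, and R2 held 85.9, 101.7, 82.0 and 88.5. The R1 and control ranges overlapped, and so did those of R2 and control, while R1 lay below R2 in every library. The difference from control was -0.29 in R1 (limma adjusted p = 0.11) and 0.13 in R2 (adjusted p = 0.54).

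NR3C1 was higher in R2 than in R1 by 0.42 (SE 0.14, limma adjusted p = 0.025), where 22.8% of all genes were called higher. Without replicate 3 of R1, the lowest library, this was 0.26 (adjusted p = 0.058), and without replicate 2 of R2, the highest, 0.36 (adjusted p = 0.069). Without replicate 2 of R1, the fall of NR3C1 in R1 against control was called, at -0.38 (adjusted p = 0.039).

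FKBP5 (ENSG00000096060.14, chr6:35573585-35728583, minus strand), the receptor's immunophilin and target, rose in R2 and was not called in R1. Control held 64.2, 63.9, 47.7 and 52.8 normalised reads, R1 held 75.9, 44.5, 64.5 and 72.6, and R2 held 70.0, 80.9, 77.1 and 80.0. R2 lay above control in every library, whereas R1 spanned the control range. The mean was 57.1 ± 8.24 in control, 64.4 ± 14.1 in R1 and 77.0 ± 4.94 in R2 (SD, n = 4 each).

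The FKBP5 difference from control was 0.44 in R2 (SE 0.15, limma adjusted p = 0.048), 1.35-fold. It was 0.15 in R1 (adjusted p = 0.44), and R2 minus R1 was 0.28 (adjusted p = 0.15). The call in R2 stood close to the threshold and was lost when any 1 of 9 libraries was left out (control replicates 2, 3 and 4, R1 replicates 3 and 4, and each of the R2 replicates), with adjusted p from 0.0507 to 0.141. Replicate 2 of R1, which was highest in HSD11B1 and H6PD, was lowest in FKBP5 among the R1 libraries, and without it the R1 difference was 0.32 (adjusted p = 0.041).

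Other genes of glucocorticoid metabolism and export were read beside HSD11B1. Of the 28 on that list 10 were measured. In R1, 4 were called higher, one of them HSD11B1, whose contrast served to choose it, with a median difference of 0.15 against 0.01 over all genes. That is 40% of the list, where 22.4% of all genes were called higher, but this share counts HSD11B1, whose call was fixed by its choice. None were called lower by limma (0 in R1 and 0 in R2, with 0 also at an unadjusted p under 0.05 and by edgeR and DESeq2). AKR1C3, an aldo-keto reductase of steroids, went from 2.08 ± 1.21 in control to 9.90 ± 5.13 in R1 (2.04, limma adjusted p = 0.00093) and was 2.07 ± 1.38 in R2. ABCC1, an exporter that carries steroids among other cargo, rose by 0.38 in R1 (adjusted p = 0.010). CYP11A1 was also called, at 0.73 (adjusted p = 0.033), from a mean of only 0.813 in control. Its call was lost without any 1 of control replicates 2, 3 and 4 and R1 replicates 2, 3 and 4 (adjusted p 0.0561 to 0.0896). It was also lost at a pseudocount of 0.1 (adjusted p = 0.070), by edgeR (0.054) and by DESeq2 (0.059). In R2 no gene of the 10 apart from HSD11B1 was called by limma, and the median was -0.05 against 0.03 over all genes. Under 6 of 21 alternatives 2 genes of the list were called higher in R2. CBR1, a carbonyl reductase, averaged 81.3 in control and 101 in R2 (0.31, limma adjusted p = 0.057). HSD11B2, the enzyme that inactivates cortisol, was looked for and was not among the listed genes.

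The supply of NADPH in the endoplasmic reticulum and the pentose phosphate pathway, which shares its substrate with H6PD, was followed in 15 of 16 listed genes. In R1, 4 were called higher and 3 lower (26.7% and 20% of the list, against 22.4% and 21.4% of all genes), with a median of 0.16. SLC37A2, a sugar-phosphate exchanger of the endoplasmic reticulum, held 7.37, 7.94, 14.3 and 14.5 in control and 24.9, 57.7, 28.7 and 25.7 in R1, a rise of 1.56 (limma adjusted p = 0.00085). Its R2 values were 6.63, 10.4, 6.40 and 4.64, and R2 minus R1 was -2.17 (adjusted p = 5.6e-05). Replicate 2 of R1 was again the highest library, and in control replicates 3 and 4 were above replicates 1 and 2. SLC37A4, the glucose 6-phosphate transporter that feeds H6PD, averaged 57.8 ± 2.67 in control, 69.0 ± 13.0 in R1 and 53.2 ± 6.56 in R2 and was not called against control (0.23, adjusted p = 0.18, and -0.13, adjusted p = 0.53). Without replicate 2 of R1, its lowest library there, SLC37A4 was called in R1 at 0.37 (adjusted p = 0.011).

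Enzymes of the cytosolic pathway moved in both directions. RPIA, which isomerises ribose 5-phosphate, rose by 0.96 in R1 (limma adjusted p = 1.2e-05) and NADK, which makes NADP from NAD, by 0.40 (adjusted p = 0.0047). In R1 TALDO1 (-0.77, adjusted p = 4.7e-05), TKT (-0.52, adjusted p = 0.016) and RPE (-0.27, adjusted p = 0.029) fell. The first is transaldolase, the second transketolase, and RPE interconverts pentose phosphates. The TKT call was lost without control replicate 3 or R1 replicate 1 (adjusted p 0.055 and 0.053), and the RPE call without control replicate 2 or 4 or R1 replicate 3 (adjusted p 0.0652 to 0.077). RPE was also not called with only the 2 groups compared (adjusted p = 0.061) or on CPM without mitochondrial and ribosomal protein genes (0.10).

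In R2, 3 of the 15 were called higher (20%, against 13.6% of all genes), with a median of 0.06: RPIA (0.38, limma adjusted p = 0.019), PGD, which makes NADPH from 6-phosphogluconate (0.38, adjusted p = 0.045), and NADK (0.33, adjusted p = 0.023). The PGD call was lost without any 1 of 8 libraries (each control, R1 replicate 4 and R2 replicates 2, 3 and 4, adjusted p 0.0546 to 0.121). That of NADK was lost without control replicates 3 or 4 or R2 replicates 1 or 3 (0.0595 to 0.0772), and that of RPIA without control replicate 3 or R2 replicates 3 or 4 (0.052 to 0.0617).

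The receptor and its chaperones were measured for all 26 listed genes. In R1, 3 were called higher and 4 lower (11.5% and 15.4% of the list, against 22.4% and 21.4% of all genes), with a median of -0.12. BAG1, a co-chaperone that binds HSP70, rose by 0.76 (limma adjusted p = 0.00066). FKBP4, the immunophilin that FKBP5 competes with in the receptor complex, averaged 269 ± 21.4 in control and 187 ± 21.0 in R1, a fall of 0.53 (adjusted p = 0.0069). PPID (-0.45, adjusted p = 0.0094) and ST13 (-0.32, adjusted p = 0.011), which encode further co-chaperones of the complex, also fell. DNAJB1 (0.40) and TTC4 (0.49) were called higher and STUB1 (-0.42) lower. The DNAJB1 call was lost without control replicate 2 or R1 replicate 2 or 3 (adjusted p 0.056 to 0.0686). That of TTC4 was lost without control replicates 2, 3 or 4, R1 replicates 2 or 4 or R2 replicate 3 (0.0528 to 0.118), by DESeq2 (0.107), with only the 2 groups compared (0.064) and under the replicate block (0.051), and that of STUB1 without control replicates 2, 3 or 4 or R1 replicates 1, 2 or 4 (0.0514 to 0.0753).

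HSP90AA1 and HSP90AB1, which encode the cytosolic HSP90 proteins, and PTGES3, the p23 co-chaperone, were not called by limma in either group. HSP90AA1 differed from control by 0.12 in R1 and 0.17 in R2 (limma adjusted p = 0.49 and 0.37). HSP90AB1 differed by 0.36 and 0.21 (0.053 and 0.30), and its difference in R1 was called at 0.46 without R1 replicate 2 (adjusted p = 0.013). It was also called by edgeR (adjusted p = 0.026), by DESeq2 (0.0092), with a mean of at least 10 (0.042) and on CPM without mitochondrial and ribosomal protein genes (0.017). PTGES3 differed by -0.09 and 0.08 (0.69 and 0.77), and its sign in R1 turned without R1 replicate 2 (0.12).

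In R2, 4 of the 26 were called higher and 1 lower (15.4% and 3.85%, against 13.6% and 14.8% of all genes), with a median of 0.15. NR3C2, the mineralocorticoid receptor, which also binds cortisol, held 9.06, 11.3, 10.1 and 11.9 in control and 19.9, 14.3, 18.2 and 19.4 in R2. All R2 libraries were above all controls, a rise of 0.73 (limma adjusted p = 0.013). In R1 NR3C2 held 13.7, 19.9, 8.85 and 13.7, which overlapped control (0.35, adjusted p = 0.17), and without R1 replicate 3 that difference was called (adjusted p = 0.020). HSPA8, the constitutive HSP70 of the cytosol, rose by 0.43 in R2 (adjusted p = 0.041), a call lost without any 1 of 8 libraries (control replicates 2, 3 and 4, R1 replicate 4 and each R2 replicate, adjusted p 0.0514 to 0.0999). IPO13, an importin, was called at 0.41 and lost without any 1 of 5 libraries (control replicates 3 and 4 and R2 replicates 1, 2 and 3, adjusted p 0.0655 to 0.103). UNC45A, a co-chaperone of HSP90, fell by 1.02 (adjusted p = 0.00011). FKBP4 differed by -0.27 in R2 (adjusted p = 0.16).

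Coregulators of the receptor were lower in R1 more often than higher. Of 21 measured, 9 were called lower and 2 higher (42.9% and 9.52% of the list, against 21.4% and 22.4% of all genes). The median difference was -0.26. NCOA1, a p160 coactivator of nuclear receptors, held 15.4, 16.4, 15.1 and 13.9 in control, 4.85, 4.96, 5.54 and 6.61 in R1, and 20.4, 21.4, 21.6 and 19.2 in R2. The 3 groups did not overlap: NCOA1 fell by 1.40 in R1 (limma adjusted p = 7.6e-07) and rose by 0.43 in R2 (adjusted p = 0.015, and 0.052 without control replicate 4). R2 minus R1 was 1.83 (adjusted p = 5.5e-08).

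NCOR1, a corepressor, was lower in both groups, at 136 ± 12.4 in control, 51.7 ± 7.38 in R1 and 66.9 ± 2.86 in R2 (SD, n = 4 each). The differences were -1.39 (limma adjusted p = 4.4e-07) and -1.01 (adjusted p = 1.5e-05). KAT2B, an acetyltransferase, fell by 0.85 in R1 (adjusted p = 8.1e-05). HEXIM1, an inhibitor of the elongation factor P-TEFb, rose by 0.41 in R1 (adjusted p = 0.030), a call lost without control replicates 3 or 4 or R1 replicates 3 or 4 (adjusted p 0.0685 to 0.0813). NCOA3, another p160 coactivator, was called higher in both groups, at 0.47 in R1 (adjusted p = 0.021) and 0.77 in R2 (adjusted p = 0.0016). The R1 call was lost without control replicate 3 or R1 replicate 2 (0.0648 and 0.0566). CREBBP, an acetyltransferase, rose by 0.74 in R2 (adjusted p = 0.0013) and SMARCA4 by 0.27 (adjusted p = 0.031, lost without any 1 of 6 libraries, adjusted p 0.0553 to 0.0902: control replicates 1, 2 and 4 and R2 replicates 1, 3 and 4). In R2, 4 coregulators were thus higher and 1 lower (19% and 4.76% of the list, against 13.6% and 14.8% of all genes), with a median of 0.10.

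Genes that glucocorticoids are known to induce did not share a direction in R1, and in R2 more were lower than higher. Of 50 listed, 38 were measured. In R1, 8 (21.1%) were called higher and 11 (28.9%) lower, close to the 22.4% and 21.4% of all genes, and the median was -0.02. In R2, 3 (7.89%) were called higher and 16 (42.1%) lower, against 13.6% and 14.8% of all genes, with a median of -0.33. R2 minus R1 was called higher for 1 and lower for 15, where 22.8% and 24% of all genes were called, and for 9 lower and 4 higher without R1 replicate 2. The count of 3 in R2 fell to 0 without control replicate 2 or R2 replicate 3, and to 1 without control replicate 3 or 4 or R2 replicate 2 or 4.

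Among the induced genes, TSC22D3, which encodes the anti-inflammatory protein GILZ, held 2.00, 3.31, 6.72 and 5.25 in control, 9.22, 25.8, 10.8 and 8.93 in R1, and 6.34, 6.56, 6.37 and 7.34 in R2. All R1 libraries were above all others, with replicate 2 highest. In control, replicates 3 and 4 were above replicates 1 and 2. The rise was 1.52 in R1 (limma adjusted p = 0.0021), or 1.18 without R1 replicate 2 (adjusted p = 0.0033). The difference was 0.68 in R2 (adjusted p = 0.14). RGS2, a regulator of G protein signalling, rose by 1.60 in R1 (adjusted p = 0.00010). ANXA1, which encodes annexin A1, went from 221 ± 3.6 in control to 411 ± 47.5 in R1 (0.89, adjusted p = 1.2e-05) and 173 ± 17.2 in R2 (-0.35, adjusted p = 0.018), opposite directions in the 2 groups.

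Others of the induced genes were lower in both groups. PER1, a circadian clock gene, held 34.8, 38.5, 59.6 and 43.2 in control, 13.7, 28.5, 17.9 and 17.4 in R1, and 18.4, 21.3, 21.9 and 21.5 in R2. No R1 or R2 library reached the control range, and the differences were -1.18 (limma adjusted p = 0.00029) and -1.04 (adjusted p = 0.0013). KLF15, a Krüppel-like factor, fell from 12.1 ± 3.02 in control to 1.44 ± 0.885 in R1 (-2.76, adjusted p = 3.1e-06) and 0.554 ± 0.240 in R2 (-3.58, adjusted p = 3.8e-07). CEBPD, a C/EBP transcription factor, was lower by log2 differences of -2.26 and -1.66 (adjusted p = 0.00052 and 0.0075). SDPR, a caveolar protein gene, had 4539 reads in control and 9 in R1, a depth-scaled ratio of 663 (95% exact counting interval 349 to 1451).

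DUSP1, a phosphatase of MAP kinases that is also induced through ERK itself, held 24.3, 18.3, 111 and 67.4 in control, so that replicates 3 and 4 were well above replicates 1 and 2. It held 10.9, 24.9, 20.2 and 19.8 in R1 (-1.21, limma adjusted p = 0.037) and 7.24, 6.75, 8.96 and 10.4 in R2 (-2.31, adjusted p = 0.0013). The R1 call was lost without control replicates 3 or 4 or R1 replicates 1, 3 or 4 (adjusted p 0.0586 to 0.12) and with only the 2 groups compared (0.064). ANGPTL4, an inhibitor of lipoprotein lipase, fell by 2.84 in R2 (adjusted p = 0.0022). The R2 rises beside FKBP5 were those of MAOA, which encodes monoamine oxidase A (0.38, adjusted p = 0.035), and BIRC3 (0.62, adjusted p = 0.038). The MAOA call was lost without any 1 of 7 libraries (each control and R2 replicates 2, 3 and 4, adjusted p 0.059 to 0.0879), and that of BIRC3 without control replicate 1 or 2 or R2 replicate 3 or 4 (0.0991 to 0.119).

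KLF9 and SGK1, which hormone induces in many cells, were not called by limma. KLF9 averaged 13.2 ± 4.35 in control, 11.9 ± 4.19 in R1 and 13.9 ± 1.04 in R2. Its difference was -0.14 in R1 (limma adjusted p = 0.68), which turned to 0.01 without control replicate 4 and to 0.00355 without R1 replicate 1. In R2 it was 0.13 (adjusted p = 0.74), which turned to -0.11 without control replicate 1. SGK1, a kinase, averaged 22.5 ± 2.77, 30.3 ± 3.44 and 18.5 ± 4.86, with differences of 0.42 in R1 (adjusted p = 0.067) and -0.31 in R2 (adjusted p = 0.21). The SGK1 difference in R1 was called without R2 replicate 2 (adjusted p = 0.015), which enters only through the shared spread. It was also called with only the 2 groups compared (0.023), under the replicate block (0.022) and on CPM without mitochondrial and ribosomal protein genes (0.037).

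**Figure D2:**
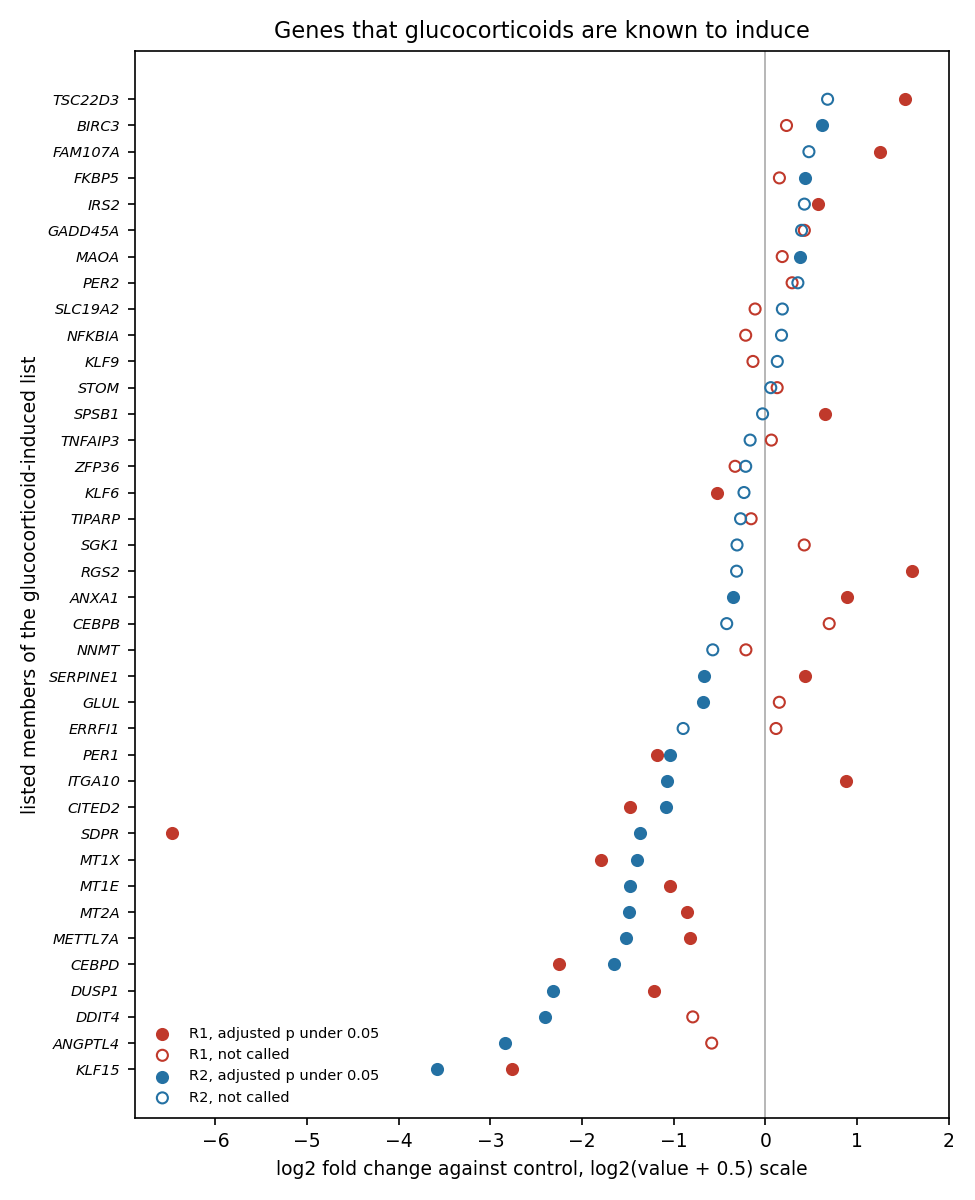
Log2 fold change against control, on the log2(value + 0.5) scale, of the 38 measured genes on the list of glucocorticoid-induced genes, in R1 (red) and R2 (blue), which share their control libraries. Filled points were called at an adjusted p under 0.05 and open points were not. Most filled points of R2 lie below 0 (16 of 19), and those of R1 lie on both sides.

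Windows upstream of 30 of the measured induced genes were found in the RefSeq table. Of these genes, 4 held the full receptor site and 2 the single-arm site in the 250 bases before a start, against 5.64% and 14.82% of all 27303 genes in the table. The TATA box was present for 12 of the 30 and for 22.48% of all genes, the C/EBP motif for 7 of the 30 and 38.12% of all genes, and AP-1 for 1 of the 30 and 8.058% of all genes.

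Genes that glucocorticoids are known to repress were measured for 21 of 28. In R1, 4 were called higher and 4 lower (19% of the list in each direction, against 22.4% and 21.4% of all genes), with a median of 0.15. MMP1, a collagenase, held 33.9, 26.8, 39.7 and 42.2 in control and 64.5, 445, 482 and 470 in R1, with replicate 1 far below the other 3 and the rise at 3.0 (limma adjusted p = 0.0023). MMP3 rose by 2.00 (adjusted p = 0.010), PLAU, the urokinase gene, by 1.21 (adjusted p = 0.00035) and IL1A by 1.55 (adjusted p = 0.029). The IL1A call was lost without control replicate 1 or 2 or R1 replicate 2 (adjusted p 0.0591 to 0.0813). IL6, a cytokine, fell from 95 ± 37.4 in control to 7.48 ± 4.40 in R1 (-3.63, adjusted p = 7.1e-06), and COL1A1 (-1.41, adjusted p = 0.0027) and LIF (-1.10, adjusted p = 0.0029) also fell. IL11 was called at -0.75 (adjusted p = 0.046), lost without any 1 of control replicates 2, 3 and 4, R1 replicates 1, 3 and 4 and R2 replicate 1 (0.0537 to 0.143), and also on CPM without mitochondrial and ribosomal protein genes (0.054).

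In R2, 5 of the repressed list were called lower (23.8%, against 14.8% of all genes), with a median of -0.26. None were called higher by limma (0 also at an unadjusted p under 0.05 and by edgeR and DESeq2). They were IL11 (-2.16, limma adjusted p = 6.8e-05), PTGS2, the inducible cyclooxygenase gene (-2.42, adjusted p = 0.0031), LIF (-1.01, adjusted p = 0.0083), PLAU (-0.87, adjusted p = 0.0062) and EGR1 (-1.93, adjusted p = 0.020). PTGS2 was unequal within control, at 2.89, 3.54, 19.1 and 15.7. The EGR1 call was lost without control replicate 3 or 4 or R2 replicate 1 or 2 (adjusted p 0.0583 to 0.0705).

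Transcription factors known to act on HSD11B1 were measured for 18 of 20, CEBPA not among them. In R1, 3 were called higher and 4 lower (16.7% and 22.2%, against 22.4% and 21.4% of all genes), with a median of -0.02, and in R2, 8 were called lower, with a median of -0.31, where 14.8% of all genes were called lower. None were called higher in R2 by limma (1 at an unadjusted p under 0.05, 0 by edgeR and by DESeq2). CEBPB is a C/EBP factor that binds an HSD11B1 promoter in other cells. It held 14.5, 16.5, 28 and 25.8 in control, 24.9, 51.7, 34.4 and 28 in R1, and 10.9, 11.4, 20.8 and 20.1 in R2. The groups overlapped, and the differences were 0.70 in R1 (limma adjusted p = 0.054) and -0.42 in R2 (adjusted p = 0.28). The R1 difference was called without control replicate 3 or 4 or R1 replicate 1 (adjusted p 0.0342 to 0.0491). It was also called by DESeq2 (adjusted p = 0.033), with only the 2 groups compared (0.046), under the replicate block (0.032) and on CPM without mitochondrial and ribosomal protein genes (0.039). R2 minus R1 was -1.12 (adjusted p = 0.0045).

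CEBPD held 43.7, 38.8, 109 and 98.1 in control, 10.2, 29.1, 12 and 8.62 in R1, and 10.8, 26.2, 24.4 and 24.9 in R2. Every R1 and R2 library was below every control library. Whether CEBPD acts on HSD11B1 in these samples was not tested. FOS, an AP-1 subunit, rose by 1.18 in R1 (limma adjusted p = 0.0073), where replicate 2 was highest at 13.4, and FOSL2 was lower in R1 (-1.45, adjusted p = 1.3e-07) and in R2 (-0.64, adjusted p = 0.00038). NFKB1 rose by 0.32 in R1 (adjusted p = 0.017, and 0.056 without control replicate 1), and RELB was called at 0.46 (adjusted p = 0.034). NR1H3, the liver X receptor alpha, fell by 1.01 in R1 (adjusted p = 7.5e-05), and PPARA was called at -0.87 (adjusted p = 0.023). DDIT3, the stress factor CHOP, fell by 2.09 in R2 (adjusted p = 0.0060). The RELB call was lost without control replicates 1, 2 or 4 or R1 replicates 2 or 3 (adjusted p 0.0571 to 0.105), and that of PPARA without control replicate 4 or R1 replicates 3 or 4 (0.0625 to 0.0772) and by edgeR (0.061).

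**Figure D3:**
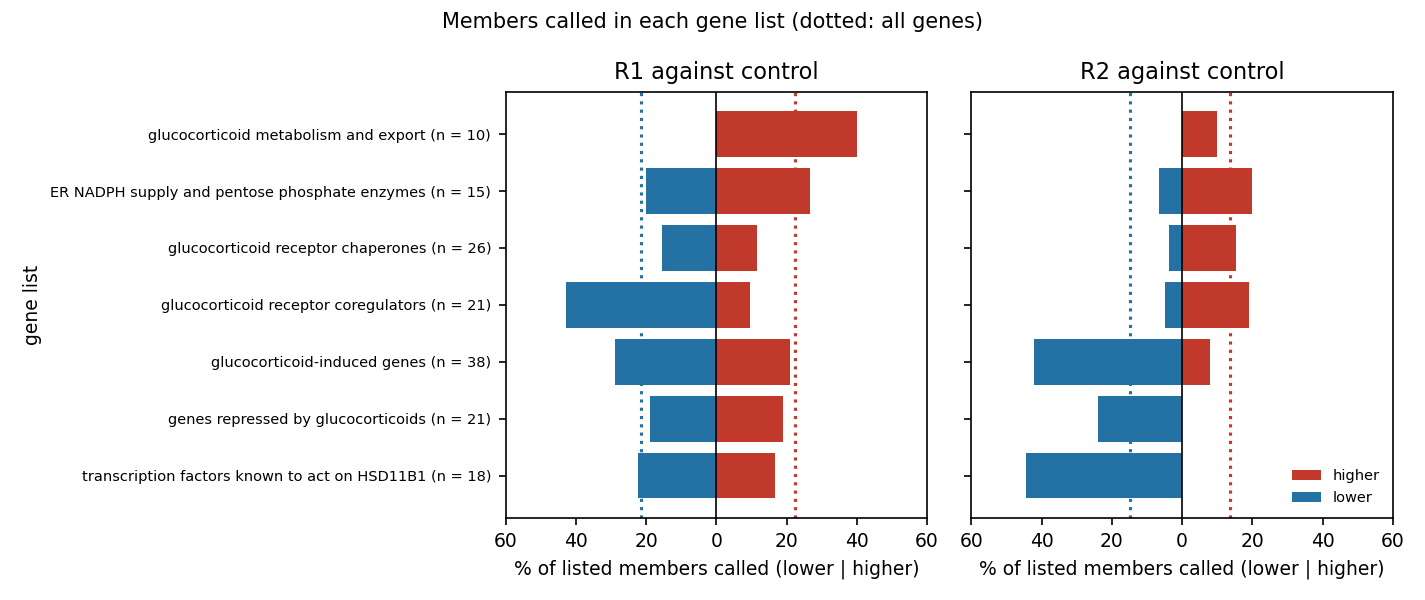
Share of the measured members of each gene list that were called higher (red, to the right) or lower (blue, to the left) against control in R1 and R2, in percent, with the number measured in brackets. Dotted lines give the shares over all genes (22.4% and 21.4% in R1, 13.6% and 14.8% in R2). The metabolism and export list counts HSD11B1, which was chosen by its rise against control. In R2 the induced genes were called lower at 42.1% and higher at 7.89%.

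The genes that lie beside HSD11B1 on chromosome 1 were read for whether it moved alone. The 9 measured genes within 1000 kb had 3 called higher and 3 lower in R1 (median -0.25). In R2, 1 was called higher and 3 lower (median -0.35). The shares called higher and lower over all genes were 22.4% and 21.4% in R1 and 13.6% and 14.8% in R2. A position was found for 12227 of the 12931 symbols. The 2 nearest genes on the lower side both rose in R1. G0S2, 9.79 kb away (chr1:209675420-209676388, plus strand), which encodes an inhibitor of adipose triglyceride lipase, held 0.0801, 0.156, 0.261 and 0.0525 in control and 81.9, 52.1, 67.2 and 52.9 in R1. In R2 it held 0.145, 0.186, 0 and 0.0918, so that it was present in R1 and near absent in the other 2 groups.

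G0S2 had 12 reads in control, 8048 in R1 and 11 in R2. The depth-scaled ratio of R1 to control was 510 (95% exact counting interval 292 to 988) and that of R1 to R2 was 672 (375 to 1347). The difference of R1 from control was 6.64 and R2 minus R1 was -6.71. With 12 reads in control and 11 in R2, G0S2 may be among the listed genes only through R1. Both differences are therefore a description and carry no test. HSD11B1 was thus present in R2 at 559 reads while its nearest measured neighbour was not above control.

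LAMB3, 33.7 kb away (chr1:209614870-209652466, minus strand), which encodes the beta-3 chain of laminin-332, followed the order of HSD11B1. It held 1.68, 2.80, 4.53 and 3.10 in control, 135, 480, 135 and 126 in R1, and 11.7, 9.54, 16.5 and 12.1 in R2. The 3 groups did not overlap, and replicate 2 was again the highest R1 library. The LAMB3 difference was 5.76 in R1 (limma adjusted p = 3.7e-08) and 1.91 in R2 (adjusted p = 0.0014), and without R1 replicate 2 the R1 value was 5.29. R2 minus R1 was -3.84 (adjusted p = 2.2e-06).

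On the other side the changes near HSD11B1 were smaller or of the other sign. C1orf74, 44.3 kb away, rose by 0.56 in R1 (limma adjusted p = 0.0031) and differed by 0.31 in R2 (adjusted p = 0.092). DIEXF, 93.1 kb away, differed by -0.25 and -0.26 (adjusted p = 0.12 and 0.14), and was called in R1 without R1 replicate 2 (adjusted p = 0.048). SYT14, a synaptotagmin gene 203 kb away, was lower in both groups (-2.90 and -1.25, adjusted p = 8.0e-08 and 0.00032). Named after their values were seen, SERTAD4 fell in both groups (-1.80 and -2.61), KCNH1 fell in R1 (-2.39) and SERTAD4-AS1 fell in R2 (-1.45). SERTAD4 and SERTAD4-AS1 adjoin each other, and without strand their reads cannot be told apart where they overlap. The next measured gene on the lower side, PLXNA2, a plexin gene 1442 kb away, rose by 2.14 and 1.39 (adjusted p = 6.1e-07 and 5.4e-05).

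**Figure D4:**
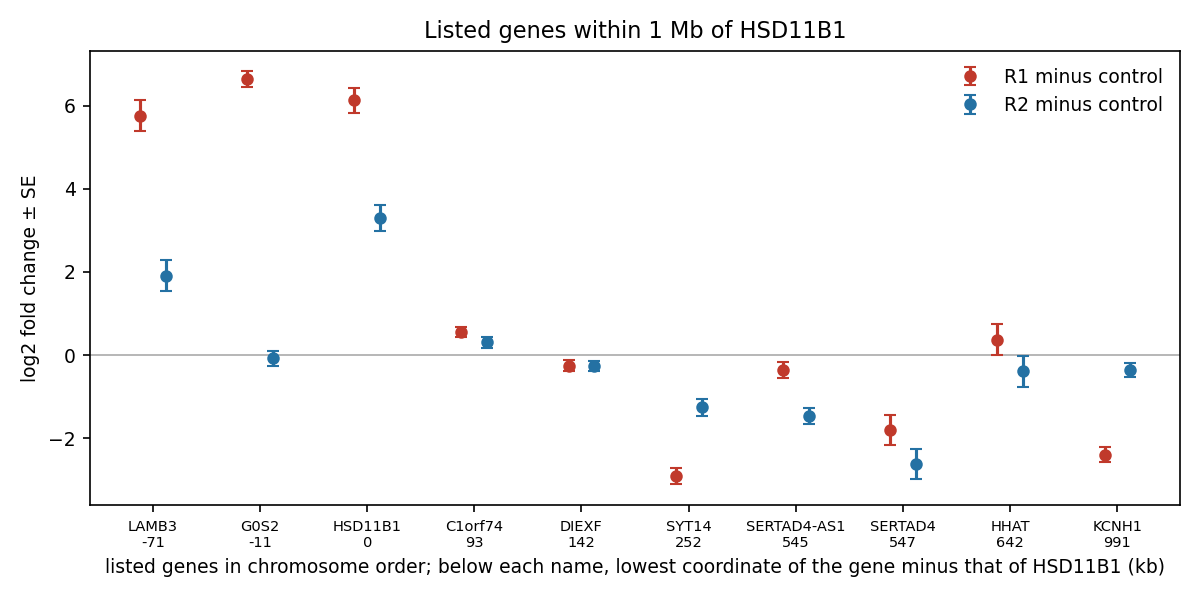
Log2 fold change against control (points, bars give the SE) of HSD11B1 and the 9 measured genes within 1000 kb, in chromosome order, in R1 (red) and R2 (blue). Numbers under the names give the distance between the lowest coordinates of the gene and of HSD11B1 in kb. LAMB3, G0S2 and HSD11B1 stand above 5 in R1, and in R2 G0S2 stands near 0.

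The 5 genes whose pattern over the 12 libraries was most like that of HSD11B1 were HLA-DRB1, LAMB3, LAMA4, HLA-DRA and SERPINA1. Likeness was the root mean square difference of log2(value + 0.5), each gene less its own mean, and was 0.47, 0.69, 0.70, 0.74 and 0.80 in that order. As these genes were chosen to resemble HSD11B1, their values are a description. HLA-DRB1 and HLA-DRA, which encode the beta and alpha chains of an MHC class II molecule, averaged 2.51 and 3.90 in control, 167 and 111 in R1, and 26.4 and 22.1 in R2. Reads of HLA-DRB1 may be shared with near-identical DRB genes.

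LAMA4, a laminin alpha chain gene, averaged 0.564 ± 0.198 in control, 79.8 ± 33.2 in R1 and 4.04 ± 1.45 in R2. SERPINA1, the gene of alpha-1 antitrypsin, averaged 0.788 ± 0.364, 35.7 ± 29.2 and 9.1 ± 3.4. Replicate 2 of R1 was the highest R1 library for these genes apart from HLA-DRA, with 130 for LAMA4 and 79.1 for SERPINA1.

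**Figure D5:**
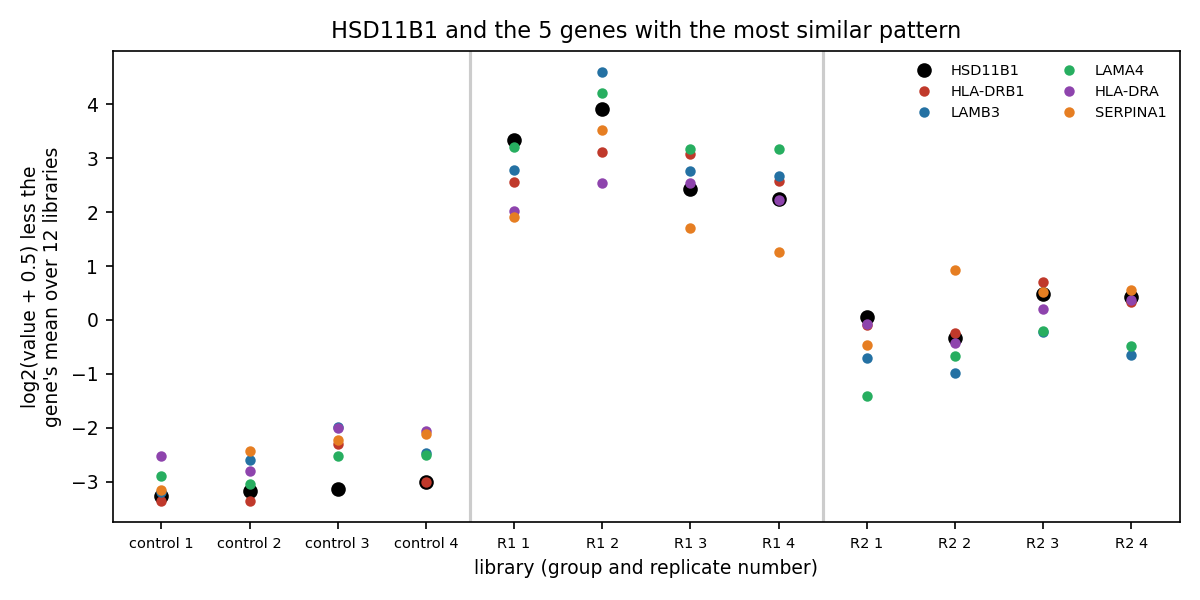
Log2(value + 0.5) less the mean of the gene over the 12 libraries, for HSD11B1 (black) and the 5 genes most like it (coloured), in each library of control, R1 and R2. All 6 genes stand lowest in control, between in R2 and highest in R1.

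Markers of the cell types that are known for HSD11B1 were read beside it. Of 8 adipocyte markers 1 was measured, LIPE, which averaged 0.673 in control, 3.95 in R1 and 0 in R2. Of 10 hepatocyte markers 1 was measured, SERPINA1, which ran from 0.281 to 1.10 in control, 16.1 to 79.1 in R1 and 4.51 to 12.7 in R2. Of 11 fibroblast and pericyte markers 5 were measured (COL1A1, LUM, PDGFRB, RGS5 and FAP), and their sum was 233 to 327 in control, 86.2 to 156 in R1 and 100 to 331 in R2. Most of that sum was COL1A1, which averaged 271, 105 and 216. FAP, a fibroblast activation protease, went the other way in R1, with means of 0.475 in control, 2.03 in R1 and 0.452 in R2 (1.30 in R1, limma adjusted p = 0.0027). LUM averaged 6.66 in control, 5.96 in R1 and 2.02 in R2, PDGFRB 4.03, 5.05 and 0.331, and RGS5 3.66, 2.55 and 6.13. In R2, 2 of the 5 were called lower and 0 higher, where 14.8% of all genes were called lower. Of 10 endothelial markers 4 were measured, with a sum of 133 to 172 in control, 375 to 499 in R1 and 126 to 157 in R2. Most of it was TIE1, which averaged 139, 394 and 135. EGFL7 averaged 3.61 in control, 16.2 in R1 and 0.00727 in R2, PECAM1 2.26, 2.55 and 0.697, and VWF 1.76, 4.49 and 0.937. Of the 4, 3 were called higher in R1 and 2 lower in R2, where 22.4% and 14.8% of all genes were so called. CSF1R was the 1 measured of 15 leukocyte markers, at 1.98, 2.87 and 0.539, and KRT10 was the 1 measured of 7 keratinocyte markers. KRT10 averaged 17.4 in control, 27.8 in R1 and 18.4 in R2 (0.65 in R1, limma adjusted p = 0.0033). The remaining markers were not among the listed genes, and the part of other cell types in the HSD11B1 values was not tested. In such bulk samples, fewer cells of a type and less RNA per cell cannot be told apart.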

How the data were processed

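RNA of 12 libraries came from the Qiagen RNeasy mini kit, and per the labels TruSeq RNA Library Prep Kit v2 was used to build them. STAR, edgeR and the build GRCh38 are named, without versions, per the submitters' processing notes, and the counter is not given in the sources used here. Each deposited file holds 12931 rows (12929 distinct symbols) with 1 normalised signal value per gene. Every value (100%) was a whole number of reads times 1 step per library, within 0.001 reads, so the deposited signal values are read counts that the authors divided by a library factor.

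Groups were tested with limma 3.58.1 in R 4.3.3 (trended empirical Bayes) after taking log2(value + 0.5), with 3 group means over 12 libraries and two-sided p-values adjusted by the Benjamini-Hochberg method. No further filter on low values was applied to the deposited list. Of its 12931 genes only 20 to 46 per library were at 0. Genes low in every group thus appear to have been left out before deposit. The added 0.5 makes log2 changes of low genes smaller than the ratio of their means. The edgeR 4.0.16 quasi-likelihood test called 5645, 3564 and 5988 genes on the recovered reads (R1 against control, R2 against control, R2 against R1), where limma called 5667, 3667 and 6053, and DESeq2 1.42.0 called 5869, 3948 and 6206. No 2 libraries of a group agreed within sampling noise. On simulated counts for R1 against control, over 12931 genes, limma called 23.9% of genes changed 1.5-fold, 68.7% of those changed 2-fold and 97% of those changed 4-fold. Only 67, 67 and 66 genes were changed at these folds, and R1 and control were fitted alone. In the data 43.8% of genes were called for R1 in a fit over all groups, so these shares need not hold for that fit.

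Genes were named by rule: the 4 genes in every library, a set of regulators, the 3 measured genes on each side of HSD11B1, and up to 3 called members per list, direction and comparison, if the larger group mean reached 5 and the groups lay apart. Where a count was 5 or fewer, members outside the rule were named after their values were seen. The 4 genes and the lists were chosen with earlier results of these data known. Positions are from GENCODE v29 on GRCh38 and upstream sequences from RefSeq (GRCh38.p14). The result of 1 listed gene that the rule names is not reported here.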

Additional observations from a re-analysis of the deposited data

Results flagged for a closer look

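Replicate 2 of R1 held an H6PD value of 68.4, and its gap to the next R1 library was more than a group of 4 gives by chance in 1 of 20 groups. The gap was 0.83 of the range of the group. The same check was made at both ends of each group for all 4 genes, without adjustment for their number, and this ratio was the largest. The effect against control differed between R1 and R2 by a test of the difference itself for 3 of the 4 genes, with R2 minus R1 at -1.10 for H6PD (limma adjusted p = 0.0014), 0.42 for NR3C1 (adjusted p = 0.025) and -2.82 for HSD11B1 (adjusted p = 7.3e-06). Of all genes 46.8% were called for that difference. The NR3C1 call was lost without R1 replicate 3 (0.26, adjusted p = 0.058) or R2 replicate 2 (0.36, adjusted p = 0.069), and with only the 2 groups compared (0.42, adjusted p = 0.052).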

How the results depend on the processing

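The 21 alternatives per comparison were other pseudocounts (0.1 and 1), a mean of at least 10, CPM with TMM factors, CPM without mitochondrial and ribosomal protein genes, edgeR, DESeq2, only the 2 groups compared, the replicate block, and each of 12 libraries left out. The main test has no filter, so an alternative without one was not run. H6PD in R1 and the R2 minus R1 differences of HSD11B1 and H6PD kept their direction and call under all of them. With a mean of at least 10, 2342 genes were called in R2 against control, in place of 3667, among fewer genes tested. FKBP5 in R2 against control lost its call there (0.44, adjusted p = 0.050) and under the replicate block (0.44, adjusted p = 0.067), and ranged from 0.35 to 0.50 over left-out libraries (adjusted p 0.0079 to 0.14). NR3C1 for R2 minus R1 lost its call with only the 2 groups compared (0.42, adjusted p = 0.052) and ranged from 0.26 to 0.51 over left-out libraries. In R1 against control NR3C1 ranged from -0.38 to -0.13 and FKBP5 from 0.065 to 0.32 over left-out libraries. Glucocorticoid-induced genes called higher ranged from 0 to 3 in R2 against control and from 1 to 4 for R2 minus R1, and those called lower for R2 minus R1 from 9 to 17. The cause was not tested.

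HSD11B1 in R1 against control, 6.12 at a pseudocount of 0.5, was 8.03 at 0.1, 5.21 at 1, 9.73 by edgeR and 9.84 by DESeq2, which follows from control values near 0. Of 114 results on other named genes, 80 kept direction and call throughout, 31 gained or lost the call at least once and 3 turned sign: PTGES3 in R1 (-0.20 to 0.12 over left-out libraries), KLF9 in R1 (-0.38 to 0.0109) and KLF9 in R2 (-0.11 to 0.28). These list and gene repeats were added after the data were seen. Replicate numbers did not pair the libraries across all groups. Of 12 same-numbered pairs 5 had a correlation of deviations over 0.1 (-0.31 to 0.39), and 10 of 24 checks matched a library best with its own number. Between R1 and R2 the same-numbered correlations were all above 0, at 0.112, 0.110, 0.0778 and 0.139. Between control and R1 they were 0.393, -0.314, 0.107 and -0.166. The replicate block called 5798, 3733 and 6162 genes in the 3 comparisons and among the 4 genes changed only the FKBP5 call in R2. At this depth HSD11B1 in control, at 4 reads, is limited by counting error.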
